A study of Homo sapiens with 24 samples.

Results

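Before any doxycycline was given, HEK293 cells that carried the NADH bypass enzymes NDI1 and AOX were compared with the DN-POLG cells from which they derive. The comparison used 6 of the 24 arrays of the series, namely the 3 arrays labelled AOX/NDI1 at day 0 and the 3 labelled DN-POLG at day 0. HEK293 is a human embryonic kidney line. Both lines held a Tet-on transgene for DN-POLG, a dominant-negative form of the mtDNA polymerase gamma that is made only when doxycycline is present, and at day 0 it was not induced. The NDI1/AOX line differed in that it also made NDI1 and AOX ectopically. All cells grew in high-glucose DMEM with uridine and pyruvate, and each group was 3 independent cultures of a single line. The effect of the 2 enzymes therefore cannot be told apart from any other difference that arose when the second line was derived, and p-values reflect the spread between cultures. The question was what the bypass enzymes, or the line that carries them, do to nuclear expression while mtDNA is still present. The 12 other HEK293 arrays were made after 3, 6 or 9 days of doxycycline in the DN-POLG line and after 9 days in the bypass line, with 3 arrays in each group. They entered the same model, and those of day 9 also gave the difference between the lines on arrays that day 0 did not use.

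Mitochondria oxidise NADH at complex I, which passes the electrons through ubiquinone to complexes III and IV and pumps protons as it does so. NDI1 is a single-polypeptide NADH dehydrogenase of yeast mitochondria, and AOX is an alternative oxidase that passes electrons from ubiquinol straight to oxygen. Together they can oxidise mitochondrial NADH without the mtDNA-encoded subunits, and neither pumps protons. Neither enzyme is human, and their transcripts have no probe set on this microarray, so the expression of the 2 transgenes could not be checked here.

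Transcript levels were read as MAS5 signals of Affymetrix HG-U133 Plus 2.0 microarrays, on which a gene can have several probe sets, and all tests were made on log2 of these signals. The NDI1/AOX arrays lay close together, with Pearson correlations of 0.981 to 0.983 over the tested probe sets, while the DN-POLG arrays correlated at 0.885 to 0.942 with one another. DN-POLG replicate 1 was closer to the NDI1/AOX arrays (0.968 to 0.974) than to its own group. The median SD of a probe set between cultures was 0.40 on the log2 scale in DN-POLG and 0.15 in NDI1/AOX cells. The ratio of 3' to 5' signal of ACTB, which climbs as RNA degrades, was 1.14 to 1.18 in NDI1/AOX and 1.08 to 1.75 in DN-POLG arrays (exact permutation test, two-sided p = 0.7), where 3 arrays against 3 can reach no less than 0.1. Among the other arrays of the model, DN-POLG at day 6 replicate 1 had a ratio of 8.92. Without it 1 gene passed (HECTD4), as with it, and 1476 in place of 1000 genes had an unadjusted p below 0.05. Of 12 genes listed as markers of HEK293 cells, 7 were above the signal filter at day 0 and 5 were higher in 143B osteosarcoma cells, the other line of the series. Their summed signal was 13100 to 14600 in NDI1/AOX and 11700 to 15500 in DN-POLG arrays. LIN28B and NEFL were at 4630 and 5290 in NDI1/AOX and at 4640 and 5240 in DN-POLG cells. On another probe set, the brightest over the HEK293 arrays, NEFL read 8423, 11430 and 11920 against 8339, 3229 and 9363, with overlap. Its log2 difference there was 0.73 (adjusted p = 0.906 from limma). SIM1 was at 639 against 360, and SALL4, SOX11, LHX1, NEFM and TFAP2B were under the filter in both. Of 22 markers of 143B or mesenchymal cells, 16 were above the filter, with a summed signal of 34400 to 39200 in NDI1/AOX and 34000 to 62200 in DN-POLG arrays. DN-POLG replicate 2 was the high one, with CD44 at 2774 against 836.9 and 210.2 on the others of its group. COL6A3, THBS1 and SPARC were under the filter in both lines. TGFBI was under it over both lines together, but read 83.6, 117.6 and 31.7 in DN-POLG cells. The part of these differences between arrays in the results was not tested.

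Transcripts of POLG, of which the uninduced transgene encodes a dominant-negative form, and of mtDNA had like levels in the lines. POLG, the catalytic subunit of the mtDNA polymerase, read 274.2, 196.8 and 266.3 in NDI1/AOX and 307.0, 421.0 and 280.1 in DN-POLG cells on the probe set that was brightest over all HEK293 arrays (log2 difference -0.44, adjusted p = 0.918 from limma). On the other tested probe set it read 858.3, 955.6 and 725.2 against 1180, 1294 and 642.6 (-0.24). The groups overlapped on the second and just missed each other on the first. Of 7 mtDNA genes on the array, all above the filter, 0 passed, and the log2 differences of their brightest probe sets ran from -0.43 to 0.74. ND2, a complex I subunit encoded in mtDNA, read 10830, 12260 and 12780 in NDI1/AOX and 17330, 12480 and 19300 in DN-POLG cells (-0.43, adjusted p = 0.906 from limma). COX1, the catalytic subunit of complex IV, read 45070, 42280 and 39320 against 43100, 59650 and 42740, so that the groups overlapped. COX3 had the largest difference of the 7, and there DN-POLG replicate 2 alone was low, at 372.5 against 1922 to 3017 on the other 5 arrays.

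A single gene passed the test. HECTD4, a large HECT-domain protein of the ubiquitin ligase family, had signals of 4455, 4420 and 4890 in NDI1/AOX cells and 821.3, 650.6 and 559.4 in DN-POLG cells (probe set 211034_s_at). All 3 arrays of the bypass line were thus far above all 3 of the other. Its mean over 3 arrays was 4588 against 677.1, a log2 difference of 2.78 (standard error 0.22, adjusted p = 2.48e-05 from limma). Over 12104 tested genes, HECTD4 made up 0.00826% as the 1 gene higher in NDI1/AOX cells, and 0 were lower. The adjustment was over 23132 probe sets whose log2 signal averaged 5.84 or more over the 18 HEK293 arrays (a signal of 57.2). At an unadjusted p below 0.05 the lines differed at 1000 genes (8.26%), 632 higher (5.22%) and 372 lower (3.07%) by any probe set. That split depended on the scaling, since quantile normalization gave 498 higher and 515 lower of 1010 genes.

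The number of genes called rested on how the DN-POLG arrays were weighed. When limma estimated a weight for each array, DN-POLG replicates 1, 2 and 3 received 3.58, 0.221 and 0.274 and the NDI1/AOX arrays 2.19 to 3.16, so that the comparison leaned on 1 DN-POLG culture. Then 942 genes passed, 592 higher and 354 lower, 4 of them in both. Without replicate 3 of DN-POLG 4 genes passed, which were HECTD4, NR4A1, SCD and DUBR.

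Among the other HECTD4 probe sets, 1557529_at read 607.3, 665.5 and 576.2 against 72.2, 68.4 and 69.7, and 1561130_at read 798.9, 669.8 and 405.6 against 68.4, 9.5 and 56.1. Neither overlapped between the lines, with log2 differences of 3.13 and 4.18, but neither passed on its own (adjusted p = 0.437 and 0.342 from limma). Their means over the DN-POLG arrays alone were under the filter, so they were tested only because the bypass line was high. The remaining 3 probe sets lay under the filter, and their differences were at most 0.98. HECTD4 lies on chromosome 12, and the genes beside it did not share the difference. Among the 6 tested genes on each side of it in the RefSeq order of GRCh38.p14, the log2 differences ran from -0.75 to 0.80 with a median of 0.07, and 2 of 12 had an unadjusted p below 0.05.

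In the cultures of day 9, when both lines were on doxycycline, HECTD4 read 4523, 4521 and 3525 in NDI1/AOX and 867.1, 491.7 and 679.6 in DN-POLG cells. The log2 difference was 2.65 (adjusted p = 4.82e-05 from limma), and HECTD4 was again the 1 gene that passed (0.00826%), while 856 genes had an unadjusted p below 0.05 by any probe set (7.07%). The difference between days was -0.12 (interaction, adjusted p = 0.999 from limma). Its other tested probe sets had log2 differences of 2.78 and 1.89 at day 9 and did not pass (adjusted p = 0.357 for 1557529_at and 0.9997 for 1561130_at from limma). The call at day 9 rested on 211034_s_at, since it was lost with the probe sets averaged (2.44, adjusted p = 0.186 from limma) or with probe sets shared by several transcripts left out. On doxycycline, DN-POLG cells stayed between 491.7 and 998.9, so none of their 9 arrays came near the bypass line. POLG, on its probe set brightest over the HEK293 arrays, read 4035, 2468 and 447.2 in NDI1/AOX and 2834, 4739 and 4268 in DN-POLG cells at day 9. Replicate 3 of the bypass line was thus low in POLG at day 9.

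**Figure D1:**
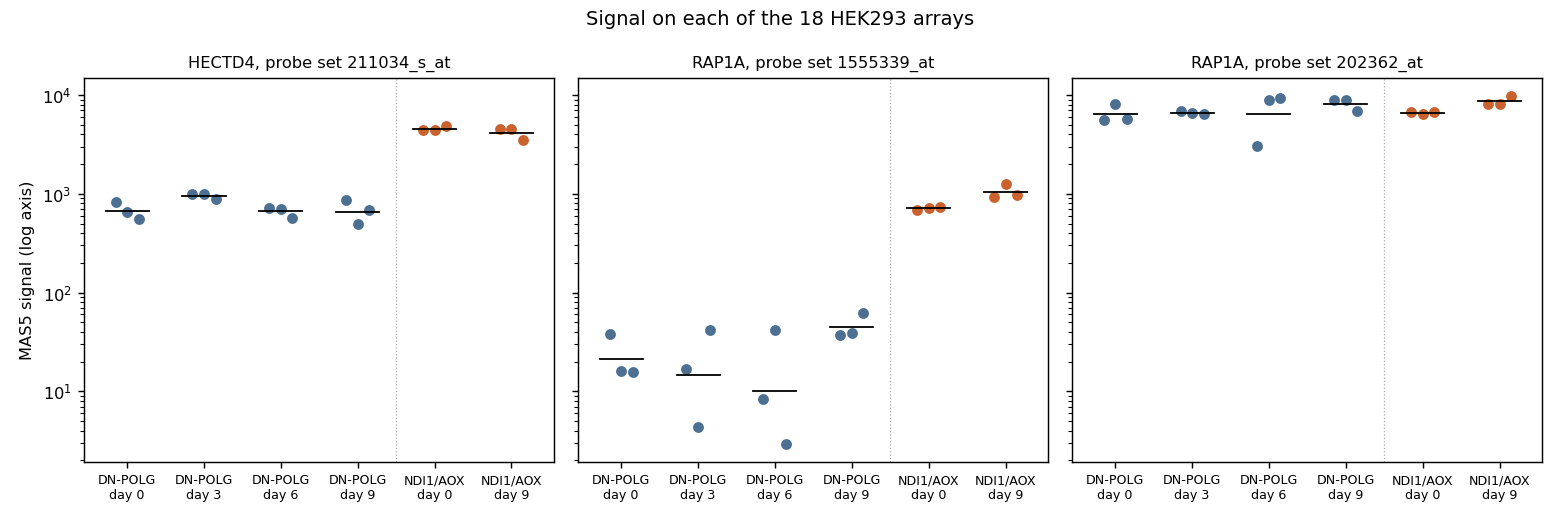
MAS5 signal (vertical log axis) on each of the 18 HEK293 arrays, by line and day, for HECTD4 and for 2 probe sets of RAP1A; points are arrays and bars the mean of log2 signals. HECTD4 was at 3525 to 4890 in NDI1/AOX cells and at 491.7 to 998.9 in DN-POLG cells, and RAP1A separated the lines on probe set 1555339_at but not on 202362_at.

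RAP1A, a small GTPase of the Ras family that acts in cell adhesion, had the largest difference of any tested probe set but did not pass. On probe set 1555339_at it read 681.4, 722.2 and 738.5 in NDI1/AOX cells, whereas the DN-POLG arrays were at 38.3, 16.2 and 15.8, all under the filter. The log2 difference was 5.06 (standard error 0.80, adjusted p = 0.114 from limma), and its size is uncertain because one side was so dim. At day 9 the same probe set read 933.4, 1244 and 982.3 against 37.4, 38.9 and 62.1, and in DN-POLG cells on doxycycline it did not exceed 62.1 on any of 9 arrays. With log2(signal + 16), or with the 6 arrays of day 0 alone, RAP1A passed as well. The brightest probe set of RAP1A did not show it, at 6691, 6455 and 6754 in NDI1/AOX and 5582, 8131 and 5716 in DN-POLG cells (log2 difference 0.06), nor did 228548_at (0.04). The lines thus stood apart on 1555339_at, which was dim in DN-POLG cells only, and overlapped on the brightest and on 228548_at. In NDI1/AOX cells 228548_at read 817.8, 768.3 and 691.3, near the level of 1555339_at. The mean of 1555339_at over the DN-POLG arrays alone was under the filter, so it was tested only because the bypass line was high. RAP1A is on chromosome 1, and among 12 neighbours the log2 differences were -0.32 to 0.66, none with an unadjusted p below 0.05.

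Few other probe sets kept the lines apart on every array. All 6 NDI1/AOX arrays of days 0 and 9 were above all 12 DN-POLG arrays at 6 probe sets (0.0259%) and below them at 3 (0.0130%). Those above were 2 of HECTD4 and 1 each of RAP1A, CEP120 (a centriole protein), BCLAF3 and CRNDE (a long noncoding RNA). Below were SALL3, SDR39U1 and CNIH4. Apart from HECTD4, RAP1A and SALL3, their log2 differences at day 0 were small, between -0.48 for SDR39U1 and 0.74 for BCLAF3.

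The next genes in order of p did not pass either, and they are named here after their values were seen, as the 24 genes with the smallest p by any probe set. Of these, 14 were higher and 10 lower in NDI1/AOX cells. SALL3, a zinc finger transcription factor of limb and neural development, read 21.9, 21.8 and 38.2 in NDI1/AOX and 111.8, 119.9 and 132.9 in DN-POLG cells (log2 difference -2.20, adjusted p = 0.342 from limma). It was under the filter in the bypass line at day 9 too, at 14.2, 45.1 and 47.8 against 87.2, 122.3 and 63.0 (-1.49, adjusted p = 0.531 from limma). CEBPE, a C/EBP transcription factor best known from granulocytes, read 85.6, 13.2 and 47.9 against 412.0, 146.5 and 764.4, and 45.1, 45.5 and 250.6 against 401.9, 328.3 and 415.4 at day 9 (-3.24 and -2.25). No array of the bypass line reached the lowest DN-POLG array of the same day. CNTNAP2, a neurexin-family adhesion protein, read 124.0, 163.3 and 152.0 against 386.4, 370.5 and 406.1 (-1.41, adjusted p = 0.430 from limma). All 4 of its tested probe sets had a negative difference, from -1.41 to -0.56.

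Among those higher, PPP2R5E, a regulatory subunit of the phosphatase PP2A, read 2219, 2271 and 1882 against 1410, 1207 and 795.0 (0.94, adjusted p = 0.712 from limma), and 1427, 1117 and 1186 against 687.6, 723.1 and 767.1 at day 9 (0.77). All 5 of its tested probe sets had positive differences on both days. PTGR1, which reduces prostaglandins and other unsaturated carbonyls, read 748.2, 618.9 and 469.9 against 232.8, 369.1 and 239.0 (1.14), and 1110, 934.7 and 1054 against 572.4, 498.3 and 700.1 at day 9 (0.82). Of the 24, 18 had the same sign at day 9, and 7 kept the arrays of the lines apart in that direction, where 5.5% of all genes were apart higher and 6.74% lower. The spread over all 18 arrays entered the p by which the 24 were picked, so these counts describe the 24 and have no fair background among all genes.

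**Figure D2:**
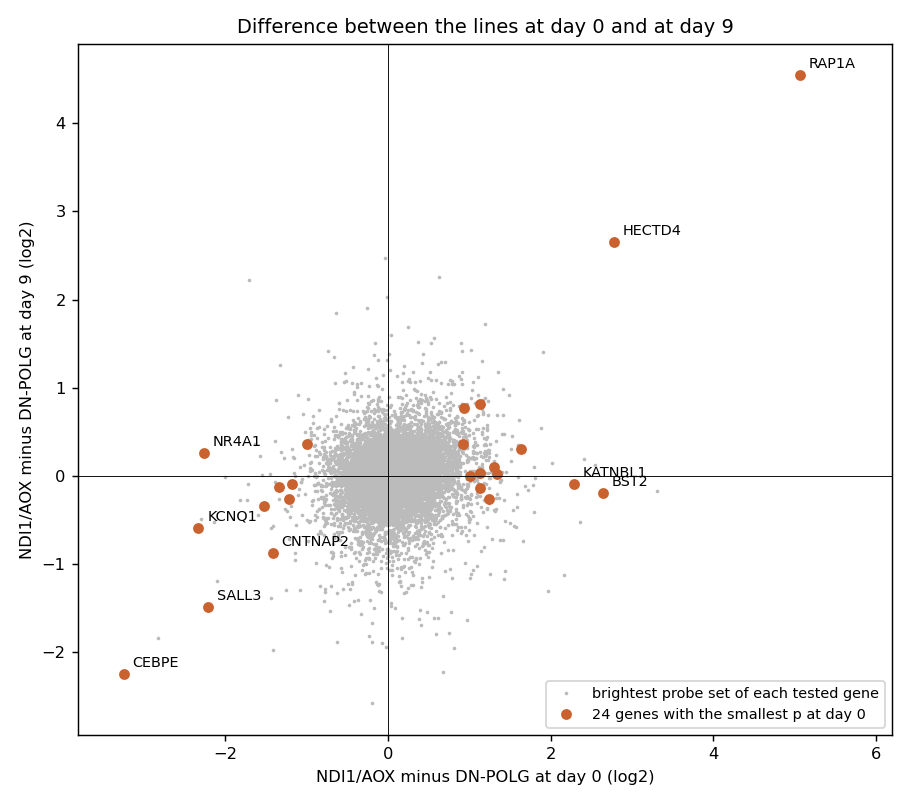
Log2 difference between NDI1/AOX and DN-POLG cells at day 0 (horizontal) and at day 9 (vertical), which share no array. Grey points are the brightest probe set of each of 12104 genes, and orange points the 24 genes with the smallest p at day 0; HECTD4 and RAP1A are high on both axes, SALL3 and CEBPE low on both, while NR4A1, KATNBL1 and BST2 are near 0 at day 9.

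Others of the 24 were apart at day 0 and overlapped at day 9. NR4A1, an orphan nuclear receptor induced by growth factors, read 32.2, 23.8 and 24.1 in NDI1/AOX and 137.3, 323.4 and 45.3 in DN-POLG cells (log2 difference -2.26, adjusted p = 0.462 from limma). At day 9 it read 155.3, 150.1 and 112.1 in NDI1/AOX and between 97.8 and 141.8 in DN-POLG cells, so that the lines overlapped. ZNF155, a KRAB zinc finger gene, read 420.9, 366.1 and 319.5 against 175.4, 88.2 and 193.4 (1.35, adjusted p = 0.480 from limma) and overlapped at day 9, when its difference was 0.02. KCNQ1, a potassium channel, read 24.6, 30.7 and 16.6 against 119.0, 140.8 and 94.8 on 211217_s_at (-2.33, adjusted p = 0.225 from limma), but its brighter probe set had a difference of 0.10. KATNBL1, which binds the microtubule-severing katanin, read 484.5, 441.9 and 303.8 against 153.9, 62.3 and 58.2 on 232094_at (2.29), and its 3 other tested probe sets had differences of 0.28 to 0.45. BST2, the antiviral protein tetherin, read 193.6, 110.2 and 260.6 against 87.3, 10.6 and 24.8 (2.64), yet 179.3, 270.8 and 80.0 against 140.5, 242.6 and 172.3 at day 9.

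SPON1, an extracellular matrix protein of axon guidance, read 1192, 1284 and 1381 against 779.7, 422.1 and 783.2 (1.01), above every DN-POLG array of days 3 to 9, which had at most 959.6. At day 9 SPON1 read 872.7, 813.9 and 531.4 in NDI1/AOX cells, so the lines overlapped, with a difference of 0.004. LRP8, a receptor for reelin and apolipoprotein E, read 835.3, 976.7 and 1029 against 530.8, 259.0 and 584.6 (1.13), also above the later DN-POLG arrays, which had at most 742.7. LRP8 overlapped at day 9 too (0.04). Without DN-POLG replicate 2 the day 0 differences were 0.72 for SPON1 and 0.76 for LRP8. PRKACB, a catalytic subunit of protein kinase A, had differences of 1.61 to 1.65 on its 3 probe sets, although DN-POLG replicate 2 was low on the named one, at 36.9 against 118.5 and 86.1. On that probe set the difference was 1.15 without replicate 2 and 0.31 at day 9, when the lines overlapped. The interaction of line and day passed for 0 genes at the adjusted threshold (limma, 0%) and for 742 at an unadjusted p below 0.05 (6.13%), so no difference between days was established for any gene named.

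**Figure D3:**
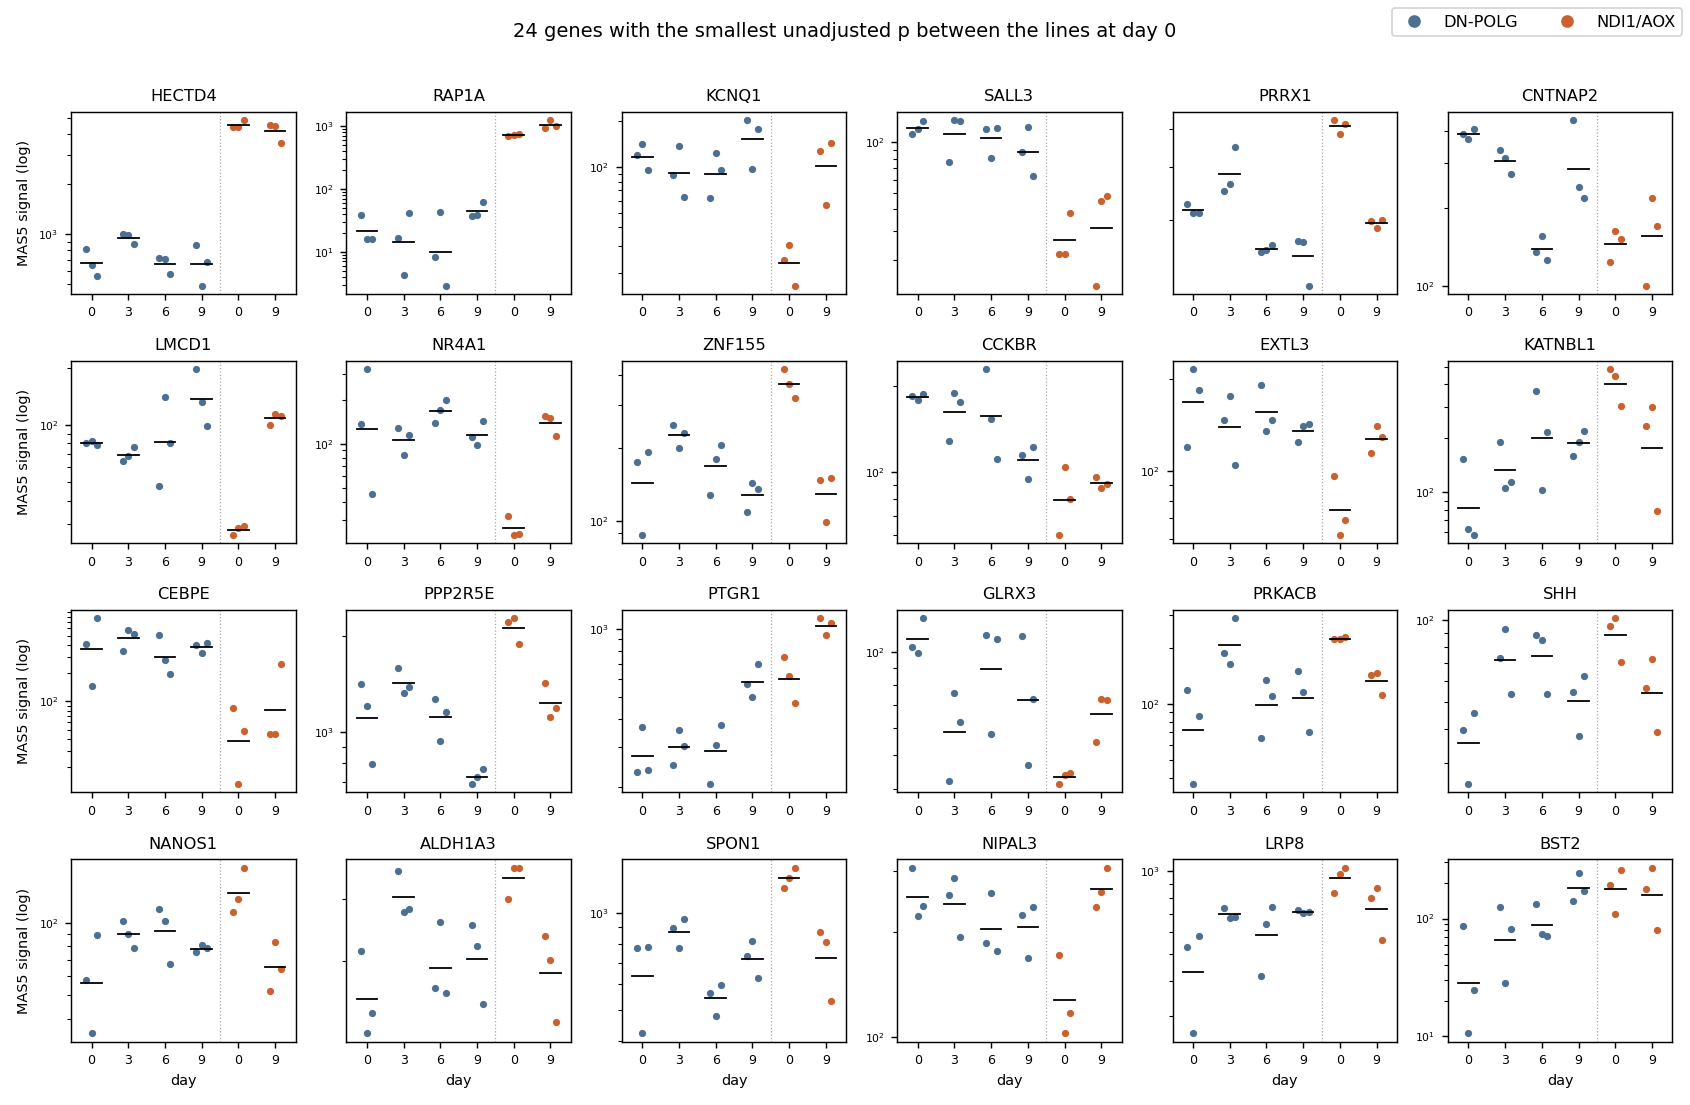
MAS5 signal (vertical log axes, each panel with its own range) of the 24 genes with the smallest unadjusted p at day 0, by day of doxycycline, in DN-POLG (blue) and NDI1/AOX cells (orange). Points are arrays, bars are means of log2 signals; the lines stay apart at day 9 for HECTD4, RAP1A, SALL3, CEBPE, PPP2R5E and PTGR1 among others, and meet for NR4A1, ZNF155 and BST2.

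The respiratory chain is where the bypass enzymes act, and no nuclear gene of it passed. Over all tested genes the median log2 difference was 0.03, and by the brightest probe set 388 genes were higher (3.21%) and 222 lower (1.83%) at an unadjusted p below 0.05, while signals of the lines did not overlap for 1052 genes higher (8.69%) and 831 lower (6.87%). Of 33 complex I subunits, 3 had a difference above 0 and the median was -0.25. For 12 of them (36.4%) all NDI1/AOX arrays were below all DN-POLG arrays, for 0 above, and 1 had an unadjusted p below 0.05. That was NDUFS6, an accessory subunit of the matrix arm, at 11680, 11480 and 10300 against 17230, 21610 and 16950 (log2 difference -0.73, adjusted p = 0.906 from limma). NDUFB2, of the membrane arm, read 8883, 8506 and 8315 against 8791, 14080 and 11720, overlapping at DN-POLG replicate 1. Against each DN-POLG array alone, the median of the 33 was -0.12, -0.52 and -0.15 for replicates 1, 2 and 3, so the size was mostly that of replicate 2, and after quantile normalization the median was -0.12.

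The nuclear subunits of complexes II to V had a median of -0.23 over 37 genes, with 16 of them (43.2%) lower without overlap and 0 higher. UQCRB, a complex III subunit, read 10130, 11600 and 10790 against 13240, 15120 and 12890 (-0.34), and ATP5PO, the stalk subunit of ATP synthase, 16850, 16380 and 15400 against 19590, 28750 and 18850 (-0.44). Neither passed (adjusted p = 0.906 from limma for both). After quantile normalization the median of the 37 was -0.08. The 16 complex I assembly factors had a median of -0.05, with 0 lower without overlap. At day 9 the medians were -0.10 for complex I subunits and -0.08 for complexes II to V.

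Dehydrogenases that pass electrons to ubiquinone by other routes did not differ beyond the spread. Of 10 tested, 0 had an unadjusted p below 0.05 and 0 were apart in either direction, with a median of -0.13. DHODH, of pyrimidine synthesis, read 317.0, 349.0 and 282.8 in NDI1/AOX and 252.2, 266.8 and 378.7 in DN-POLG cells. GPD2, of the glycerol phosphate shuttle, read 2926, 2435 and 2643 against 3054, 1518 and 2082, and SDHA, the flavoprotein of complex II, 5778, 5696 and 4906 against 5807, 9838 and 4672. All 3 overlapped. The list of NADH shuttles and of other enzymes and carriers that move reducing equivalents had a median of 0.00 over 16 genes. NNT, the transhydrogenase of the inner mitochondrial membrane that links NADH and NADPH, is on this list but belongs to no shuttle, and was first by p, at 1460, 1644 and 1828 against 1320, 659.4 and 1086 (log2 difference 0.74, adjusted p = 0.906 from limma). The TCA cycle had a median of -0.04 over 23 genes with 0 at an unadjusted p below 0.05, and NAD synthesis 0.09 over 15 with 1.

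Glycolysis had a median of -0.16 over 22 genes, 5 lower without overlap (22.7%) and 1 higher, and 0 had an unadjusted p below 0.05. PGAM1, the phosphoglycerate mutase, read 16100, 16820 and 16030 against 20470, 23850 and 19170 (-0.37, adjusted p = 0.906 from limma). PKM, a pyruvate kinase, read 804.7, 778.5 and 675.5 against 942.9, 945.5 and 1158 (-0.43). Both were lower in every array of the bypass line, by less than the test could call.

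Ribosomal protein genes had medians below 0, but these leaned on DN-POLG replicate 2, and for the cytosolic ones also on scaling. Their median was -0.25 over 58 genes, of which 3 were above 0, and -0.01 after quantile normalization. It was -0.03, -0.59 and -0.13 against DN-POLG replicates 1, 2 and 3, and -0.07 with replicate 2 left out. Mitochondrial ones had a median of -0.10 over 76 genes, 14 lower without overlap (18.4%) and 1 higher. Against DN-POLG replicates 1, 2 and 3 that median was -0.03, -0.35 and -0.11. MRPL36, of the large mitochondrial subunit, read 6357, 6629 and 6402 against 10530, 12610 and 10380 (-0.78), and its difference was -0.67 at day 9. MRPS11, of the small one, read 1487, 1103 and 1372 against 1852, 3769 and 1925 (-0.86), or -0.53 without DN-POLG replicate 2. For both, the 3 day 0 arrays of the bypass line lay below all 12 DN-POLG arrays, but neither passed (adjusted p = 0.906 from limma).

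**Figure D4:**
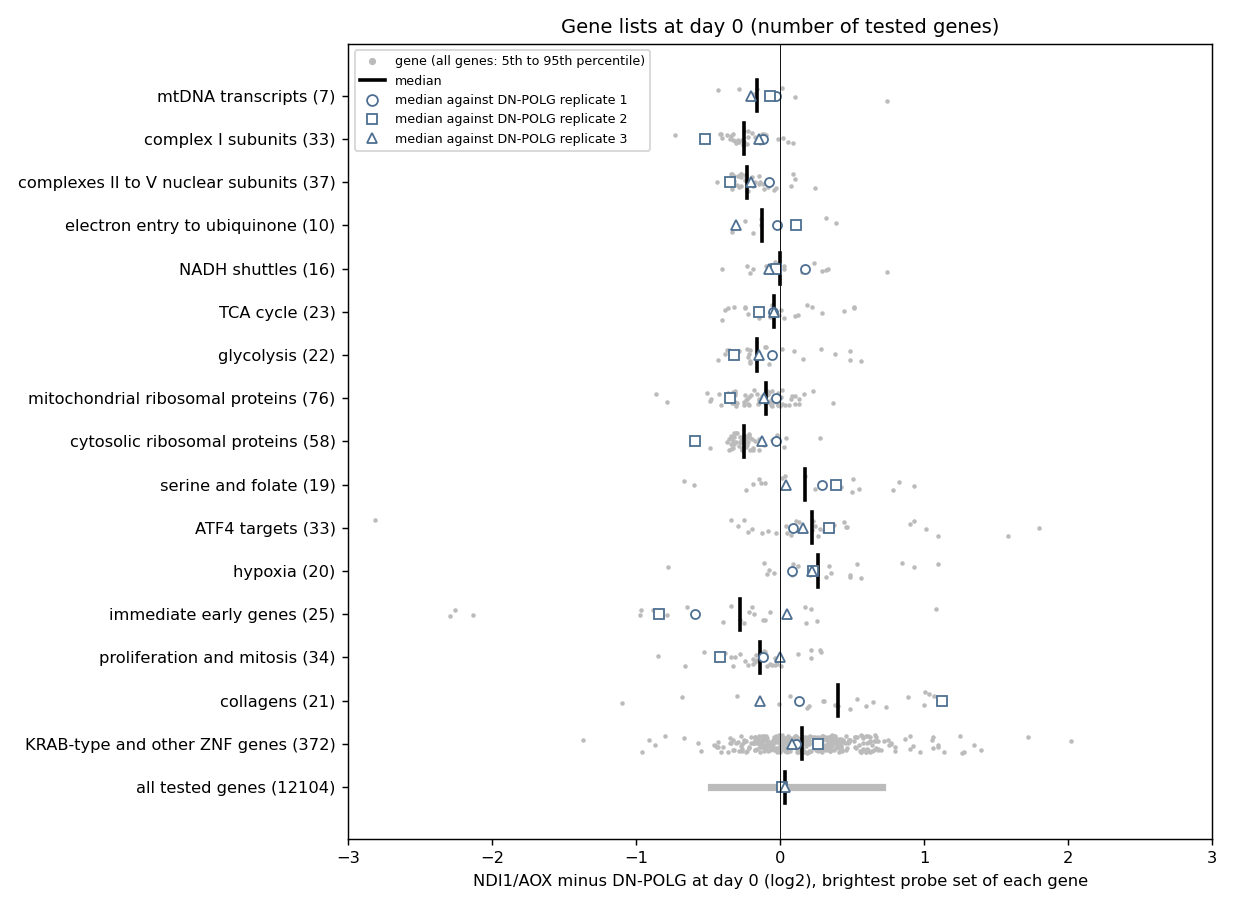
Log2 difference between NDI1/AOX and DN-POLG cells at day 0 (horizontal) for the genes of 16 lists, with the number of tested genes in brackets; grey points are genes, black bars the median, and open symbols the median of the 3 NDI1/AOX arrays against each DN-POLG array alone. The grey bar for all tested genes runs from the 5th to the 95th percentile (-0.48 to 0.71), and the symbols of replicate 2 lie farthest out for complex I, ribosomal proteins and collagens.

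Immediate early genes, which serum and growth factors switch on within minutes, held the list with the largest share at an unadjusted p below 0.05 in one direction. Of 25 tested, 7 were lower (28%) and 0 higher, and the same 7 did not overlap between the lines. FOS, a subunit of the AP-1 transcription factor, read 148.9, 123.3 and 171.3 in NDI1/AOX and 654.4, 806.5 and 704.1 in DN-POLG cells (log2 difference -2.29, standard error 0.63, adjusted p = 0.906 from limma). The lowest DN-POLG array was far above the highest of the bypass line. Besides NR4A1 the others were EGR1 (-2.13), CCN1 (-0.98), IER2 (-0.97), DUSP5 (-0.84) and DUSP6 (-0.79), the last a pair of phosphatases of the ERK pathway, and they are given here after their values were seen. IER2 read 3236, 3270 and 3286 against 5580, 6587 and 7108. EGR1, a zinc finger transcription factor, was uneven among DN-POLG cells, at 7056, 927.1 and 3480 against 713.4, 460.1 and 826.3. JUN and JUNB, partners of FOS, overlapped, with differences of 0.18 and -0.07. MYC, at 2445, 3288 and 4100 against 1106, 631.1 and 4972, also overlapped.

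The list as a whole depended on the DN-POLG array. Its median was -0.28, and -0.59, -0.84 and 0.05 against replicates 1, 2 and 3, so replicate 3 did not share it. Without replicate 3 the median was -0.64 and NR4A1 passed, and without replicate 2 the median was -0.0015. At day 9 the median was -0.29, with FOS at -0.48, IER2 at -0.52 and DUSP6 at -0.57. In DN-POLG cells at days 3 to 9 FOS spanned 90.6 to 789.0, and the day 0 arrays of the bypass line lay within that range.

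Targets of ATF4, the transcription factor of the amino acid and mitochondrial stress response, leaned upward in the bypass line at day 0. Of 33 tested, 6 were higher (18.2%) and 1 lower (3.03%) at an unadjusted p below 0.05, and the median was 0.22, beside -0.30 at day 9. ASNS, asparagine synthetase, read 15610, 18200 and 16280 against 11260, 6314 and 7894 (log2 difference 1.01, adjusted p = 0.906 from limma). NUPR1, a stress-induced chromatin protein, read 159.3, 260.3 and 231.6 against 113.1, 39.6 and 51.4 (1.79, adjusted p = 0.906 from limma). Neither overlapped between the lines at day 0, and both differences were negative at day 9, at -0.49 and -0.40. ATF4 itself read 20770, 20090 and 19340 against 21090, 32340 and 17810 and overlapped. GDF15, a secreted stress signal, read 1197, 907.7 and 841.1 against 630.3, 1164 and 792.1 and overlapped as well, while FGF21 was under the filter. Serine and folate genes had a median of 0.17 over 19, with PSAT1, the phosphoserine aminotransferase, at 8607, 11300 and 10720 against 7063, 2358 and 9093 (0.93, adjusted p = 0.906 from limma). PSAT1 overlapped, and its difference was 0.34 without DN-POLG replicate 2. PHGDH, the entry enzyme of serine synthesis, read 5887, 6413 and 5702 against 4664, 4461 and 5829 (0.28) and overlapped.

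Cytosolic tRNA synthetases, which charge tRNAs with amino acids, had a median of 0.02 over 17 genes, with 5 higher (29.4%) and 2 lower (11.8%) without overlap. LARS1, for leucine, read 10010, 10570 and 11410 in NDI1/AOX and 8402, 6118 and 7698 in DN-POLG cells (log2 difference 0.54, adjusted p = 0.906 from limma). TARS1, for threonine, was on the other side, at 7825, 8551 and 8358 against 10910, 10060 and 11210 (-0.38, adjusted p = 0.906 from limma). The other 4 higher ones, given after their values were seen, were SARS1 (0.43), CARS1 (0.41), IARS1 (0.26) and YARS1 (0.23), and all 4 had negative differences at day 9, from -0.31 to -0.23. VARS1 (-0.66) was the other lower one.

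Hypoxia-responsive genes had a median of 0.26 over 20, with 3 higher (15%) and 1 lower (5%) at an unadjusted p below 0.05. DDIT4, an inhibitor of mTORC1 that is also on the ATF4 list, read 2046, 3474 and 3196 against 836.2, 1114 and 2502 (1.10, adjusted p = 0.906 from limma). It overlapped at DN-POLG replicate 3, and its difference was 0.76 without DN-POLG replicate 1 and 1.55 without replicate 3. At day 9 it was on the other side, with a difference of -1.02 (adjusted p = 0.907 from limma). PDK1, which inhibits pyruvate dehydrogenase, read 2665, 3588 and 3546 against 2802, 965.1 and 2164 (0.84) and overlapped.

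Genes of proliferation and mitosis had a median of -0.14 over 34, with 3 lower (8.82%) and 0 higher at an unadjusted p below 0.05. Against DN-POLG replicates 1, 2 and 3 the median was -0.12, -0.42 and 0.00, and it was -0.04 with replicate 2 left out. At day 9 it was 0.07. CENPE, a kinesin of the kinetochore, read 1070, 1068 and 1083 against 1783, 1593 and 1732 (-0.66, adjusted p = 0.906 from limma). MCM5, of the replicative helicase, read 1638, 1070 and 1461 against 1823, 2622 and 3128 (-0.85). Growth rates were not measured on these arrays.

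Zinc finger genes, taken by the symbol ZNF, had a median of 0.15 over 372 genes. Of these, 53 were higher without overlap (14.2%) and 7 lower (1.88%), while 15 had an unadjusted p below 0.05 in the higher and 1 in the lower direction (4.03% and 0.269%). ZNF155, given above, was first among them by p. ZNF836 was the 1 lower, at 77.9, 65.1 and 71.8 against 88.3, 163.4 and 166.7 (-0.91). Against DN-POLG replicates 1, 2 and 3 the median was 0.11, 0.26 and 0.08, above the all-gene medians of 0.01, 0.01 and 0.03 each time, and at day 9 it was 0.05. Collagens had a median of 0.40 over 21 genes, but 1.12 against replicate 2 and 0.13 and -0.14 against replicates 1 and 3, and 0.04 with replicate 2 left out. Across 48 lists with 1692 tested genes in all, 0 genes passed at the adjusted threshold (limma) and 96 had an unadjusted p below 0.05 by the brightest probe set (5.67%, beside 5.04% of all genes).

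Position on the chromosomes, which the comparison did not use, separated the genes a little. The median difference of a chromosome ranged from -0.07 for chromosomes 17 and 19 to 0.19 for chromosome 13, with 0.16 for chromosome 4. At day 9 the medians lay between -0.12 and 0.02, and chromosomes 13 and 4 were at 0.01 and 0.02. Against DN-POLG replicate 2 alone, chromosomes 13 and 4 had 0.31 and 0.30 and chromosome 19 had -0.20, while against replicate 1 they had 0.11, 0.08 and -0.04, and against replicate 3 0.07, 0.06 and 0.00. The span from the lowest to the highest chromosome was 0.26, and 0.16 without replicate 2.

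**Figure D5:**
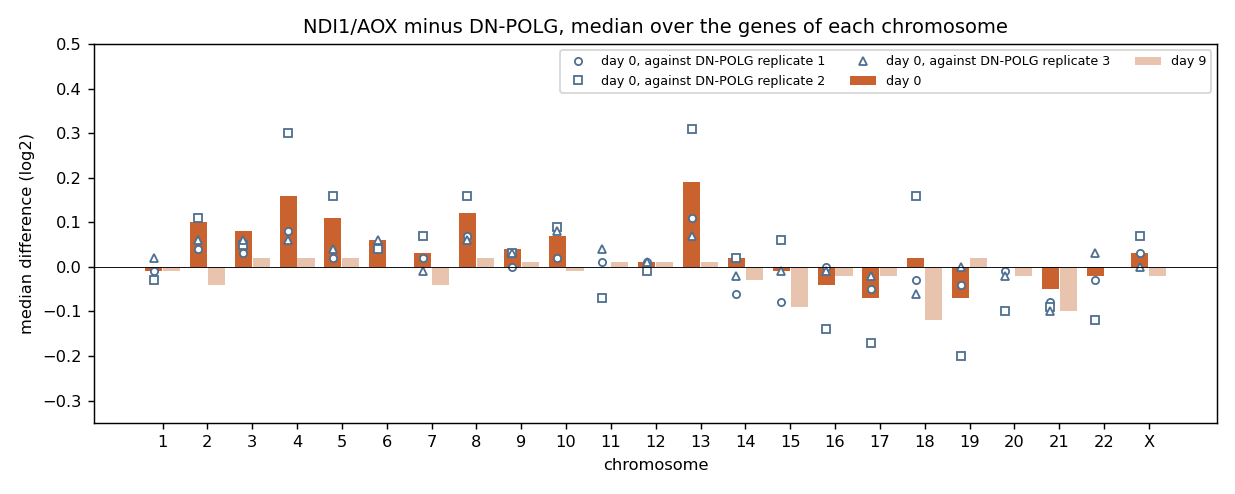
Median log2 difference between NDI1/AOX and DN-POLG cells over the tested genes of each chromosome (bars from 0) at day 0 and day 9, and at day 0 against each DN-POLG array alone (open symbols). The bars of day 0 run from -0.07 to 0.19, those of day 9 from -0.12 to 0.02, and replicate 2 is the outermost symbol at chromosomes 4, 13, 17 and 19.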

How the data were processed

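Total RNA of 3 cultures per group was hybridised to HG-U133 Plus 2.0 arrays. The authors summarised probe intensities to MAS5 signal intensity in Affymetrix Expression Console, and per the labels and values each deposited array was scaled to one trimmed mean (500.1, 2% trimmed at each end). The depth of these arrays is unknown, and their number limits the precision. Probe sets were named by platform annotation, where 41091 of 54675 have 1 gene symbol, of which 41037 matched RefSeq (GRCh38.p14). Signals were put on the log2 scale with no offset, and the 23132 probe sets at or above the median mean signal (5.84) entered limma 3.58.1 in R 4.3.3, with 6 groups over 18 HEK293 arrays and Benjamini-Hochberg adjustment over all of them at 0.05. A gene passed by any probe set, and lists used the brightest. Named genes were POLG, mtDNA genes, those that passed with signals apart, up to 2 members of a list by p and genes that a list's name turns on; others are said to be chosen after their values were seen. The arrays, lists and alternatives were chosen with earlier results of these data known. The procedure was tested on simulated data.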

Additional observations from a re-analysis of the deposited data

Results flagged for a closer look

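A second RAP1A probe set, 1555340_x_at, carried a signal although its mean over the 18 HEK293 arrays fell below the filter and it was left out of the tests. It read 1041, 969.7 and 1229 in NDI1/AOX and 8.2, 12.2 and 3.5 in DN-POLG cells at day 0, a ratio of geometric means of 152.5 whose size rests on signals near 0. The bypass line was far above the other on every array, on day 9 as well, where the log2 difference was 7.96. With no filter its adjusted p at day 0 was 0.00294 from limma. The platform annotation gives it the same source sequence as 1555339_at, so it is not independent of that probe set. By its ID in _x_at it is also among the probe sets shared by several transcripts. RAP1A probe sets from other sequences, 202362_at and 228548_at, had log2 differences of 0.06 and 0.04 at day 0.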

How the results depend on the processing

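The count of 1 gene at day 0 was the same after quantile normalization or after setting each array to the same median. It was also the same with a stricter filter, a variance trend, probe sets averaged or plain ANOVA. ANOVA is the test the methods name, but here it used the filter and log2 signals of the main fit. It thus does not repeat the authors' procedure. It was 3 with log2(signal + 16) (CHRM3, HECTD4 and RAP1A) and 2 (HECTD4 and RAP1A) with no filter, with a filter on the brighter day 0 group or with the 6 day 0 arrays alone. It was 942 with array weights and 0 once the probe sets shared by several transcripts (IDs in _s_at or _x_at) were left out, where 709 genes had an unadjusted p below 0.05 and HECTD4 had 4.18 (adjusted p = 0.343 from limma). Leaving out each array in turn gave 1 to 4 genes, with PKP3 beside HECTD4 without NDI1/AOX replicate 3, and HECTD4 at 2.65 to 2.93. The count at an unadjusted p below 0.05 was 556 without DN-POLG replicate 2, 1650 without replicate 1, 2412 without replicate 3 and 603 without NDI1/AOX replicate 3. At day 9 HECTD4 had 2.44 with probe sets averaged (adjusted p = 0.186 from limma) and 1.89 with the shared probe sets left out (adjusted p = 0.999 from limma), and the 6 day 0 arrays alone give no value for day 9. List genes past the threshold numbered 71 with array weights and 0 to 1 with an array left out. The chromosome span of 0.26 was 0.20 with no filter and 0.16 to 0.34 with an array left out. TFAM was at 0.045 in place of -0.48 with the shared probe sets left out, which changes the probe set it is read from. Of 1348 values for 73 other gene results, 1297 kept direction and side of the threshold, 50 newly passed and 1 turned. None of the 73 had passed in the main fit, so keeping the side means only that they still did not pass. Sizes could move, as for PSAT1 from 0.34 to 1.31 with an array left out. Of 190 list medians 184 moved by less than the spread between arrays. The others were complexes II to V (-0.08), cytosolic ribosomal proteins (-0.01) and mtDNA transcripts (0.13) after quantile normalization, complexes II to V (-0.10) and hypoxia (0.06) with array weights, and immediate early genes (-0.64) without DN-POLG replicate 3. Chosen after seeing the data, the contrast averaged over days 0 and 9 gave 2 genes, and testing probe sets with several or no symbols, or leaving out DN-POLG day 6 replicate 1, gave 1 (1476 genes at an unadjusted p below 0.05 in the last). With the replicate number as a block 1 gene passed, 1048 had an unadjusted p below 0.05 and HECTD4 was at 2.78. Deviations of same-numbered arrays of the lines correlated at -0.02, 0.05 and 0.33. Arrays with different numbers were not compared in this way, so whether the numbers pair the arrays was not tested. Probe sets under the filter in one line, such as those of RAP1A and SALL3, give a difference of uncertain size.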

Other observations

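Genes of mtDNA maintenance had a median log2 difference of 0.02 over 21 genes at day 0, with 4 higher (19%) and 2 lower (9.52%) without overlap. Over all tested genes these shares were 8.69% and 6.87%. TFAM, which packages mtDNA, read 4218, 4014 and 4221 in NDI1/AOX and 4957, 6241 and 6324 in DN-POLG cells (-0.48, adjusted p = 0.906 from limma). POLG2, the accessory subunit of the mtDNA polymerase, read 1168, 1227 and 1200 against 846.9, 1114 and 932.1 (0.32, adjusted p = 0.906 from limma). Of 17 p53 targets, 3 were higher (17.6%) and 1 lower (5.88%) without overlap, beside the same 8.69% and 6.87% of all genes. With so few genes in these lists, the counts set neither list apart from all genes.

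Enzymes of DNA methylation and demethylation had a median log2 difference of -0.04 over 15 genes at day 0, with 1 lower and 0 higher at an unadjusted p below 0.05. MBD2, which binds methylated CpG, read 2093, 2402 and 2103 in NDI1/AOX and 3293, 4341 and 3033 in DN-POLG cells (-0.68, adjusted p = 0.906 from limma). The methyltransferases DNMT1, DNMT3A and DNMT3B had differences of -0.38, 0.15 and -0.24 and overlapped between the lines. The other tested probe set of DNMT3A had -0.33. The dioxygenases TET2 and TET3 overlapped too, while TET1, at 1877, 1835 and 1783 against 1617, 1241 and 1642 (0.30, adjusted p = 0.906 from limma), did not. The other tested probe set of TET1 overlapped (0.17), and the brighter one had a difference of -0.04 at day 9. In the methionine cycle MTRR, which reactivates methionine synthase, read 1438, 1408 and 1575 against 2047, 2221 and 2384 (-0.59), and its difference was -0.56 at day 9.

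Genes of neurons had a median log2 difference of -0.05 over 20 at day 0, with 8 above 0. SYT1, a calcium sensor of synaptic vesicles, was on the higher side. It read 616.1, 597.4 and 756.0 in NDI1/AOX and 315.7, 313.9 and 282.4 in DN-POLG cells (1.10, adjusted p = 0.906 from limma). SFRP1, a secreted Wnt antagonist, read 389.1, 502.8 and 498.5 against 710.7, 573.5 and 857.9 (-0.61), and its arrays were apart at day 9 as well (-0.72). IFITM1, an interferon-induced membrane protein, read 1917, 2132 and 2004 against 1435, 1269 and 806.2 (0.83), and the interferon-stimulated list had a median of 0.07 over 21 genes. SLC7A3, a cationic amino acid transporter on the ATF4 list, was its 1 member lower at an unadjusted p below 0.05, at 1.7, 37.7 and 50.5 against 107.5, 136.1 and 76.4, all under the filter in the bypass line. Medians of the p53, cholesterol, polyamine and heat shock lists were 0.01, 0.04, -0.06 and 0.06, with 0 genes at an unadjusted p below 0.05 in each.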
